A study of Rattus norvegicus with 12 samples.

Results

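The sham-operated rats give the baseline of the microRNAs (miRs) in lumbar dorsal root ganglia (DRG), the ganglia that hold the cell bodies of the sensory neurons of the limb together with their glia and vessels. The members were all arrays labelled Sham, 4 of the 12 arrays of the study, and within them every miR assay of the deposited table. The 4 arrays were L3-DRG replicate 1, L3-DRG replicate 2, L4-DRG replicate 1 and L4-DRG replicate 2. All 4 came from adult male Sprague-Dawley rats of 250 to 300 g, with DRG collected at Day 23 after a sham operation that laid the sciatic nerve open without tying or cutting any branch. No transgene or genetic change is named for these rats, and the 8 arrays of injured rats entered only a check of the replicate numbers. Each array held RNA of a single DRG, so the neurons, satellite glia, Schwann cells, vessels and any blood left after perfusion were measured together. What a replicate number stands for, a rat or a run, is not given in the labels. p-values therefore measured the spread that each model left among these arrays, which may be technical.

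A miR is a short RNA that guides the silencing complex to messenger RNAs, mostly by pairing through its seed, the bases 2 to 8 from its 5′ end. It is cut from one arm of a hairpin, so a hairpin can give a 5p and a 3p miR, and miRs with one seed form a family that can bind overlapping sets of messages. The card quantified each miR by its own real-time PCR assay and gave a Ct, the PCR cycle at which the signal crossed the detection line. A lower Ct is a higher level, and 1 cycle is about a doubling, so Ct is a log2 scale with its sign turned. Of the 160 wells in the table, 154 held miR assays (147 designed on the mouse sequence and 7 on the rat sequence) and 6 held references. Only miRs detected in all 12 arrays were in the table, so the list cannot tell which miRs were undetected in Sham. All 616 Sham values were present and below 40, the number of cycles run. Assays differ in efficiency, and so an order of Ct between assays is not an order of copy number.

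The miRs with the lowest Ct were miR-24, miR-126-3p, miR-16, miR-191, miR-182 and miR-30c, and mature rat sequences are shown for 8 of the 10 lowest miRs, which set the abundant end of the order. Sequences are from RefSeq (GRCr8), 5′ to 3′, with the seed in capitals. Of the 154 assays, 133 were matched to a rat mature sequence.
miR-24: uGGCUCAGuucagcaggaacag
miR-126-3p: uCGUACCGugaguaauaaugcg
miR-16: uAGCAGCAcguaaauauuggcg
miR-191: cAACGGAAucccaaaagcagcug
miR-182: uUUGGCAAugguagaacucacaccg
miR-183: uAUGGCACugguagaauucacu
miR-30c: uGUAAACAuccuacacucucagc
miR-204: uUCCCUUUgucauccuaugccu
miR-29a: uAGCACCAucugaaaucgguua
miR-183 is shown as the neighbour of miR-182 in one cluster, and no 2 of these miRs shared a seed. Their genes were spread over the genome. miR-24 is encoded at chr17:1818669-1818736, within the protein-coding gene Aopep, and again at chr19:40859455-40859562, which lies in no annotated gene. The mature miR-126-3p lies at chr3:29813219-29813240 within Egfl7, a gene of endothelial cells. The miR-16 hairpin at chr2:155555327-155555421 lies within Smc4, miR-191 at chr8:118142627-118142717 within Dalrd3, and miR-204 at chr1:229743461-229743570 within Trpm3, which encodes a cation channel of sensory neurons. miR-30c has a hairpin at chr5:139634455-139634543 within Nfyc and another at chr9:33253682-33253765. miR-182 at chr4:59752246-59752307 and miR-29a at chr4:60617955-60618042 lie in no annotated gene. Both miR-24 copies, miR-182, miR-183, miR-29a and the chromosome 5 copy of miR-30c are on the minus strand and the others on the plus strand (all positions GRCr8).

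Over the 4 arrays the mean Ct of the 154 miRs ran from 20.26 to 35.71, a span of 15.45 cycles, with a median of 29.31. Mean Ct was below 25 for 15 miRs, between 25 and 30 for 79, between 30 and 35 for 59, and 35 or more for 1. Few assays thus lay at the abundant end. miR-24 had a Ct of 21.35 and 19.93 in the L3 arrays, replicate 1 first, and of 20.58 and 19.17 in the L4 arrays (mean 20.26 ± 0.93, SD, n = 4 arrays). It ranked first on every array, 1.76 cycles ahead of the next miR by mean. miR-126-3p, the miR of endothelial cells, had a Ct of 22.87, 21.74, 22.06 and 21.40 in the same order of arrays, and ranked second on every array. miR-16, a brake on the cell cycle, followed at 24.23, 22.63, 22.98 and 21.91, with ranks from 3 to 5. miR-191 was at 23.22, 23.42, 22.57 and 22.98, with ranks from 3 to 10. The raw Ct of miR-191 was thus nearly level over the arrays, where those of miR-24 and miR-16 were lower in both replicate 2 arrays. After each array was centred on its mean, the SD was 1.39 cycles for miR-191, 0.40 for miR-24 and 0.43 for miR-16. Relative to the other miRs, miR-191 thus varied more than miR-24 and miR-16. miR-182, of the cluster that marks sensory neurons and sensory organs, was at 24.19, 22.96, 23.54 and 22.33, and ranked 4 or 5 on every array.

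**Figure D1:**
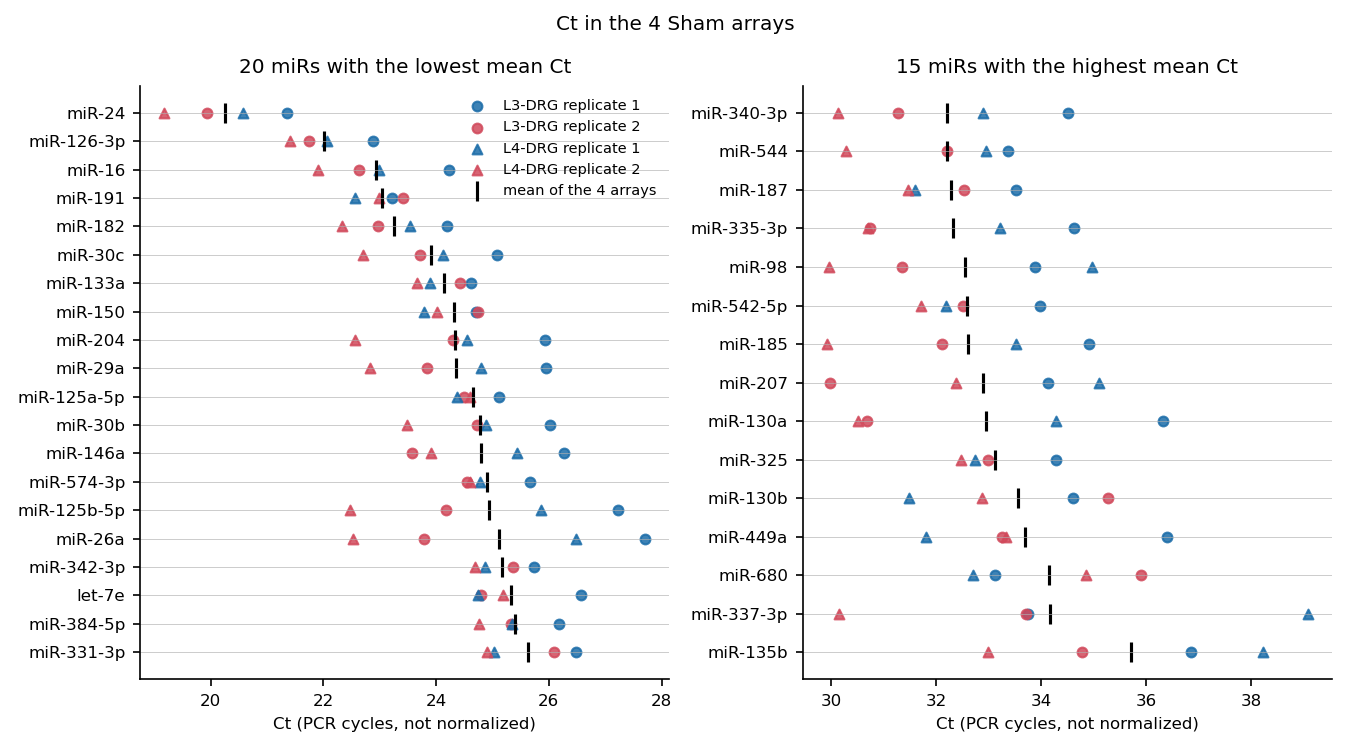
Ct (PCR cycles, not normalized) of the 20 miRs with the lowest and the 15 miRs with the highest mean Ct in Sham DRG. Points are single arrays (circles L3-DRG, triangles L4-DRG, blue replicate 1, red replicate 2) and black bars are means of the 4 arrays; miR-24 at 20.26 stands lowest and miR-135b at 35.71 highest, and for most miRs the red points lie to the left of the blue.

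The other miRs among the 20 lowest were miR-30c (mean Ct 23.91), miR-133a of muscle (24.14), miR-150 of lymphocytes (24.31), miR-204 (24.34), miR-29a (24.36), miR-125a-5p (24.65), miR-30b (24.78) and miR-146a, induced in inflammatory signalling (24.79). They went on with miR-574-3p (24.89), miR-125b-5p (24.93), miR-26a (25.12), miR-342-3p (25.16), let-7e (25.32), miR-384-5p (25.40) and miR-331-3p (25.63). The next miR by mean, miR-30e at 25.81, was 0.18 cycles higher than miR-331-3p, so the limit of 20 fell within a continuous run of values. Of the 20, 13 were among the 20 lowest on each of the 4 arrays. These 13 were miR-24, miR-126-3p, miR-16, miR-191, miR-182, miR-30c, miR-133a, miR-150, miR-204, miR-29a, miR-30b, miR-146a and miR-125b-5p. In all, 28 miRs were among the 20 lowest of at least 1 array. Neighbours in the order from miR-204 to miR-331-3p lay close together and were not tested against each other. The median SD of all miRs over the 4 arrays was 0.76 cycles after each array was centred on its mean. Among these neighbours that SD ran from 0.05 for miR-29a to 1.16 for miR-125a-5p. The SD so centred was 1.10 for miR-26a, with a Ct of 27.71 and 26.47 in the replicate 1 arrays of L3 and L4 and of 23.79 and 22.53 in the replicate 2 arrays. By the replicate 2 arrays alone miR-26a ranked 5.

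At the scarce end stood miR-135b, miR-337-3p, miR-680, miR-449a, miR-130b and miR-325. Mature sequences of those matched, with miR-130a, which shares its seed with miR-130b, were as follows.
miR-135b: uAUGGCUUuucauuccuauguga
miR-337-3p: uUCAGCUCcuauaugaugccuuu
miR-449a: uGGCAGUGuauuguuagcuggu
miR-130b: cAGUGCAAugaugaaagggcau
miR-130a: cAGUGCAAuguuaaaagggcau
miR-325: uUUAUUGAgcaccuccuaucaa
miR-135b had a Ct of 36.85 and 34.78 in L3, replicate 1 first, and of 38.23 and 32.99 in L4. miR-337-3p was at 33.76, 33.71, 39.08 and 30.16. Its lowest and highest values were thus the L4-DRG arrays of the different numbers, 8.92 cycles apart. miR-449a, a miR of multiciliated cells, was at 36.39, 33.25, 31.82 and 33.34. miR-680 was at 33.13, 35.90, 32.70 and 34.86, and so its Ct was higher in both replicate 2 arrays. The other miRs among the 15 highest had mean Ct of 32.20 (miR-340-3p) to 33.56 (miR-130b), and were miR-325, miR-130a, miR-207, miR-185, miR-542-5p, miR-98, miR-335-3p, miR-187 and miR-544. Only 2 miRs, miR-325 and miR-135b, were among the 20 highest of all 4 arrays, and 41 were among the 20 highest of at least 1 array. The scarce end was thus less fixed from array to array than the abundant end.

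Arrays with the same number and of different levels ordered the miRs much alike. Spearman's rho over the 154 miRs was 0.955 between the replicate 1 arrays of both levels and 0.961 between the replicate 2 arrays. Between the numbers it was 0.785 within L3-DRG and 0.825 within L4-DRG, and 0.783 and 0.837 between arrays that differed in both level and number. These correlations are across miRs on one card and are descriptions, since the miRs share RNA, card and run. Of the 20 lowest miRs, arrays of one number shared 20 and 16, and arrays of different numbers shared 13 to 16. With the 2 arrays of a level or of a number averaged, rho was 0.980 between levels and 0.818 between numbers.

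**Figure D2:**
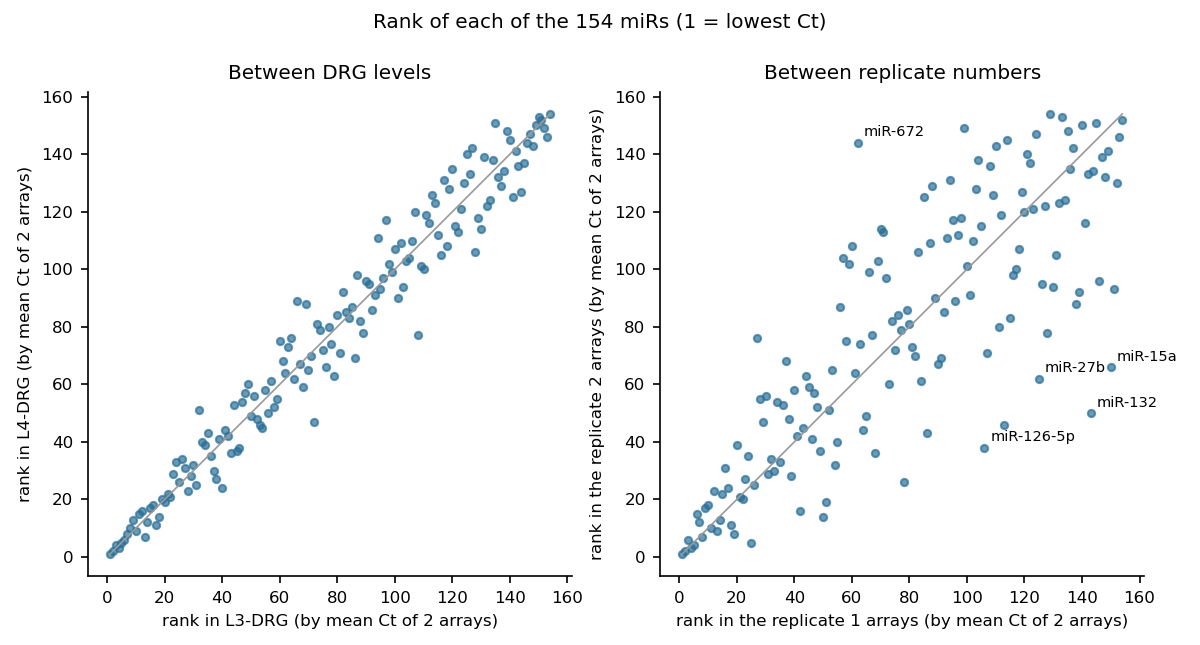
Rank of each of the 154 miRs by the mean Ct of 2 arrays (1 is the lowest Ct), L3-DRG against L4-DRG on the left and replicate 1 against replicate 2 on the right; the grey line marks equal ranks. Points hug the line between levels (rho 0.980) and scatter widely between numbers (rho 0.818), with miR-672 above the line and miR-132, miR-15a, miR-27b and miR-126-5p below it.

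The median range of a miR's ranks over the 4 arrays was 24 places. It was 11 for the 39 miRs with the lowest mean Ct, 25 and then 36.5 for the next groups of 38, and 29 for the 39 with the highest. Range was 10 or less for 23 miRs and 50 or more for 22. The 5 narrowest ranges were those of miR-24, miR-126-3p, miR-182, miR-30c and miR-16, of 0 to 2 places. The 5 widest were those of miR-93 (ranks 46 to 145), miR-132 (51 to 145), miR-15a (58 to 150), miR-27b (55 to 142) and miR-672 (62 to 144). In miR-93, of the miR-17 family, Ct was lowest in the L3-DRG replicate 1 and L4-DRG replicate 2 arrays (28.85 and 27.36) and higher in the other two (32.47 and 31.35). It therefore followed neither level nor number. In miR-132, miR-15a, miR-27b and miR-672 the extremes lay in arrays of different numbers.

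The whole card shifted between arrays as well. In replicate 1 the mean Ct of the 154 miRs was 30.48 for L3 and 29.41 for L4, and in replicate 2 it was 28.37 and 27.41. Ct was higher in replicate 1 than in replicate 2 in both levels for 135 of the 154 miRs and lower in both for 8, with a mean difference of 2.05 cycles (SD over miRs 1.64). L3-DRG exceeded L4-DRG in both numbers for 131 miRs, with a mean difference of 1.01 (SD over miRs 0.57). The reference RNAs did not move together. snoRNA135 had a Ct of 33.20 (L3) and 32.42 (L4) in replicate 1 and of 29.65 and 28.27 in replicate 2, and U87 of 27.64, 26.68, 26.05 and 25.49. MammU6 went the other way, from 17.79 and 16.90 in replicate 1 to 18.74 and 18.66 in replicate 2. The choice of reference therefore set the size of each difference between numbers and for many miRs its direction, while it changes neither the ranks within an array nor the order of the means.

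**Figure D3:**
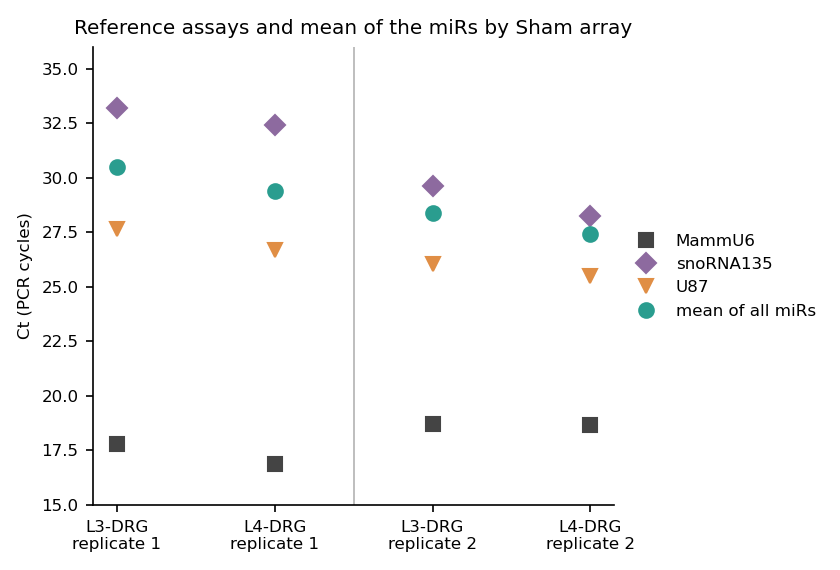
Ct of the 3 reference RNAs and mean Ct of the 154 miRs on each of the 4 Sham arrays, replicate 1 arrays left of the line and replicate 2 arrays right of it. The miR mean, snoRNA135 and U87 were lower in both replicate 2 arrays, and MammU6 was higher.

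No miR passed the test between L3-DRG and L4-DRG. They were compared as minus ΔCt, in which the mean of MammU6, snoRNA135 and U87 is subtracted from Ct and the sign turned, so that a positive value is a higher level. limma called 0 of the 154 miRs at an adjusted p under 0.05 (0%), with 0 at an unadjusted p under 0.05 and a smallest adjusted p of 0.993. With the replicate number as a block, limma still called 0, with 9 miRs at an unadjusted p under 0.05 (5.84%) and a smallest adjusted p of 0.601. On simulated data of this design, 30 miRs were changed by 3 on the log2 scale. The fit without the block called none of them and the blocked fit called 71%. The count of 0 without the block therefore does not show that the levels were alike. Smaller changes were not simulated, so the blocked count of 0 does not show it for them either. A single miR cannot pass an exact permutation test of 2 arrays against 2, for which the smallest two-sided p is 0.333. The miRs named next, with their SE, are those of the fit without the block, whose spread includes the shift between numbers. Its smallest p values were those of miR-207 and miR-431, and the blocked limma fit gave both an adjusted p of 0.601. miR-207 was at 34.14 and 29.99 in L3 (replicate 1 first) and at 35.10 and 32.39 in L4. miR-431 was at 30.82 and 28.22 in L3 and at 28.19 and 26.63 in L4. The L4-DRG minus L3-DRG difference was -2.45 ± 1.24 (SE) for miR-207 and 1.33 ± 0.69 for miR-431, on the log2 scale of minus ΔCt. In minus ΔCt, the tested scale, miR-207 was at -7.93 and -5.18 in L3 (replicate 1 first) and at -9.76 and -8.25 in L4. On that scale miR-431 was at -4.61 and -3.41 in L3 and at -2.86 and -2.49 in L4. Raw Ct was higher in L3 in both numbers for 131 of the 154 miRs. miR-101a, miR-130b, miR-29c and miR-376a were next on the higher side and miR-539, miR-200c, miR-15b and miR-685 on the lower, with differences of 0.87 to 1.98 and of -0.63 to -0.55.

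Between the replicate numbers, with the DRG level in the model, limma called 47 of 154 miRs (30.5%), 40 higher in replicate 2 (26%) and 7 lower (4.55%). In this model the SE and p rest on how far the shift differed between the levels. If a number stands for 1 rat or run, they do not measure the spread between rats or runs. The miRs with the smallest p values were miR-132, miR-148a, miR-20a, miR-17 and miR-126-5p, higher in replicate 2, and miR-672, miR-680, miR-184, miR-130b and miR-191, lower in replicate 2. Mature sequences are given for those matched and not yet shown.
miR-132: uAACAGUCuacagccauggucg
miR-148a: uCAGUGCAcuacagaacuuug
miR-20a: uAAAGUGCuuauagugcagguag
miR-17: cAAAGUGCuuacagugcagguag
miR-126-5p: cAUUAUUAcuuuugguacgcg
miR-672: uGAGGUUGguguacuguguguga
miR-184: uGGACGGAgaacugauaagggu
miR-132, which neurons make more of when active, had a Ct of 34.58 and 32.92 in the replicate 1 arrays of L3 and L4 and of 26.93 and 26.05 in the replicate 2 arrays. miR-148a was at 35.73 and 34.27 against 29.44 and 28.42. miR-20a was at 32.87 and 30.70 against 26.94 and 25.30, and miR-17, of the same cluster and seed, at 29.14 and 27.94 against 24.77 and 23.93. These are raw Ct values and include the shift of the whole card. Ct was higher in replicate 1 in both levels for 135 of the 154 miRs. miR-672 was at 30.04 and 29.03 in replicate 1 and at 31.97 and 31.20 in replicate 2, the opposite order.

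The median difference of all 154 miRs between the numbers was 0.64 with the 3 references, and the split between directions rests on them. When all miRs' mean served as the reference, the median was -0.12, and limma called 51 (33.1%), 25 higher (16.2%) and 26 lower (16.9%). Both scalings called 32 of the same miRs with one sign, 25 higher and 7 lower. Replicate 2 minus replicate 1 in minus ΔCt was 5.96 ± 0.31 (SE) for miR-132 and 4.77 ± 0.28 for miR-148a, each with an adjusted p of 0.0219 by limma. Against the mean of all miRs the differences were 5.20 and 4.02. It was 4.37 ± 0.28 for miR-20a, 2.89 ± 0.27 for miR-17 and 4.39 ± 0.42 for miR-126-5p. On the lower side it was -3.35 ± 0.27 for miR-672, -3.77 ± 0.35 for miR-680, -2.39 ± 0.28 for miR-184, -2.33 ± 0.31 for miR-130b and -1.60 ± 0.27 for miR-191. With MammU6 alone as the reference the last 3 turned to 0.26, 0.32 and 1.05. Of the 47 called miRs, 20 kept one sign under all 6 references tried, 18 higher and 2 lower. A change of reference moves the difference of every miR by the same amount. Keeping the sign therefore restates the size of a difference and is not separate support. A model without the level called 45 miRs on all 4 arrays, 3 without the L4-DRG replicate 2 array and 16 without L3-DRG replicate 2. Which miRs shifted was alike in the 2 levels, with a rho of 0.758 over the 154 miRs between the number shifts of L3-DRG and L4-DRG. The shift between levels had a rho of 0.0588 between the numbers. Neither the GC content of the mature sequence (rho -0.163, 133 miRs) nor the mean Ct (rho 0.150) followed the shift between numbers closely. Shifts between numbers also correlated across miRs between the 6 groups of the study, injured groups included. Over the 15 pairs of groups r ran from 0.642 to 0.791. What the numbers stand for, and so the part of RNA input, card, run and rat in this shift, was not tested.

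Members of one seed family could lie far apart in Ct. The 133 matched assays held 101 seeds, of which 15 were shared by at least 2 assays and 6 by at least 3. The let-7 family, which times differentiation and is held down by Lin28, was measured with all 9 members on the list. Substitutions are counted from 1 at the 5′ end, with the base of let-7a first.
let-7a: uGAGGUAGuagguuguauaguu
let-7b: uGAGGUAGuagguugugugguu
let-7c: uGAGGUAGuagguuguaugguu
let-7d: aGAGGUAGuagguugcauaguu
let-7e: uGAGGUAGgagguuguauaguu
let-7f: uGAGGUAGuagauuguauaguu
let-7g: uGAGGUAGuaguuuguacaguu
let-7i: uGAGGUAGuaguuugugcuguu
miR-98: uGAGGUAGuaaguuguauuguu
let-7e, with U9G, had the lowest mean Ct of the family, 25.32 (rank 18). let-7g (G12U U18C) was at 27.10, let-7c (A19G) at 27.14, let-7i (G12U A17G U18C A19U) at 27.51 and let-7b (A17G A19G) at 28.58. let-7d (U1A U16C) was at 28.86, let-7a at 29.27 and let-7f (G12A) at 29.66. miR-98 (G11A A19U) was the highest, at 32.55 (rank 144). let-7e was at 26.57, 24.80, 24.74 and 25.18 (L3, then L4, replicate 1 first), so that its 4 values lay below all 4 of let-7a (30.75, 29.24, 29.92 and 27.17) and of miR-98 (33.89, 31.35, 34.98 and 29.97). Assays of members that differ at a single base may read each other, which was not tested. Of the 9, 1 was called higher in replicate 2 (let-7i, against 26% of all miRs), at 29.78 and 28.34 in replicate 1 and 26.66 and 25.27 in replicate 2. let-7i was not called against the mean of all miRs, and with snoRNA135 alone its difference turned to -0.76.

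The miR-30 family, with miR-384-5p of the same seed, was the nearest to the abundant end of the 6 seeds with at least 3 assays, with a median rank of 20. Its sequences and those of the miR-125 seed are shown because members with one seed differed in level, by up to 3.22 cycles among the 4 matched assays of the miR-30 seed and by up to 6.34 among the 4 of the miR-125 seed.
miR-30a: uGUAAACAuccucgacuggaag
miR-30e: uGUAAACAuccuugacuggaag
miR-384-5p: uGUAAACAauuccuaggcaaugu
miR-125a-5p: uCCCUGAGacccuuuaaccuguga
miR-125b-5p: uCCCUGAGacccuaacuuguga
miR-351: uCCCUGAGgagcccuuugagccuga
All 5 miR-30 assays lay below the median Ct of all miRs, with mean Ct of 23.91 (miR-30c), 24.78 (miR-30b), 25.81 (miR-30e), 27.13 (miR-30a) and 27.88 (miR-30d) and a median range of ranks of 4 places, against 24 over all miRs. miR-384-5p, encoded elsewhere, on chromosome X, was at 25.40. miR-30a and miR-30d were called higher in replicate 2 with the 3 references and not with the mean of all miRs. miR-125a-5p and miR-125b-5p, relatives of the worm lin-4 RNA, lay close together at 24.65 and 24.93, while miR-351 with the same seed was at 30.62 by the rat assay and 30.99 by the mouse assay. miR-125a-5p had a Ct of 25.12, 24.49, 24.38 and 24.60, nearly level while the card as a whole shifted, and miR-125b-5p one of 27.22, 24.18, 25.86 and 22.47. After each array was centred on its mean, the SD was 1.16 cycles for miR-125a-5p and 0.75 for miR-125b-5p, so that relative to the other miRs miR-125a-5p varied the more. The miR-26 family was likewise abundant, with miR-26a at 25.12 and miR-26b at 26.57. In the miR-29 family, whose targets include collagen messages, miR-29a (24.36) and miR-29c (29.30) were 4.95 cycles apart.

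Other families spread over several cycles or lay toward the scarce end. miR-16 (22.94) shares its seed with miR-195 (27.15), miR-497 (30.47) and miR-15b (31.27), a span of 8.33 cycles. The miR-17 family, which promotes growth of cells, had 6 members between 26.44 (miR-17) and 30.71 (miR-106b). Of these 4 were called higher in replicate 2, miR-17, miR-20a, miR-106a and miR-20b, against 26% of all miRs, and all 4 also against the mean of all miRs. RefSeq also places the mature miR-17 at the Mir106a hairpin on chromosome X, and the miR-106a assay was not matched. Whether the assays of miR-17 and miR-106a read separate miRs was not tested. With snoRNA135 alone miR-20b turned to -0.47. miR-301b, miR-130a and miR-130b, a further seed family, were the scarcest of those 6 among matched assays, at 30.78, 32.95 and 33.56. miR-301a, which was not matched to a sequence and so not counted with them, was at 28.99 (rank 71). Called in opposite directions between the numbers were miR-130a, higher in replicate 2, and miR-130b, lower. miR-449a at 33.70 shares its seed with miR-34a at 28.32, a miR of the p53 response.

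miRs encoded close together also differed widely in Ct. Within 10 kb of each other on one strand lay 66 assays in 21 clusters. At chr17:1818669-1819482 in Aopep, miR-24 (20.26) lies beside miR-27b (29.94) and miR-23b (30.86), a span of 10.60 cycles, and at chr19:40859455-40859689 a second copy of miR-24 lies beside miR-27a (29.65). As both copies give the same mature miR-24, its level cannot be assigned to one cluster. miR-27a, miR-27b and miR-23b were each called higher in replicate 2 under both scalings, and miR-24, at 0.12 ± 0.27, was not called. At chr2:155555197-155555421 in Smc4, miR-16 and miR-15b were 8.33 cycles apart, and at chr8:118142627-118143166 in Dalrd3, miR-191 (23.05) and miR-425 (28.88) were 5.84 apart. The imprinted Dlk1-Dio3 locus, whose miRs come from the maternal chromosome, held the most assays of any list. It had 24 of 45 members measured, with 25 assays at a mean Ct from 26.17 (miR-434-3p) to 34.18 (miR-337-3p), a median rank of 83 and 11 assays below the median Ct of all miRs. Of these 25, 17 lie at chr6:134543445-134579838, from miR-409-3p (26.41) to miR-544 (32.21), and 6 at chr6:134321142-134330482, where some lie within Rtl1. The miR-17-92 cluster and its paralogs had 9 of 12 members measured, from miR-19b (25.87) to miR-106b. The cluster of miR-351, miR-450a and miR-542-5p on chromosome X lay wholly above the median, at 30.62 to 32.60.

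In 7 hairpins both arms were measured, and in 5 the sign of the difference in Ct was the same on all 4 arrays. The largest difference was that of miR-126. Ct of its 3p arm minus that of its 5p arm was -9.64 and -8.40 cycles in the replicate 1 arrays of L3 and L4 and -4.42 and -4.04 in the replicate 2 arrays. The gap was thus wider in both replicate 1 arrays than in both replicate 2 arrays, since miR-126-5p fell from 32.52 and 30.46 to 26.16 and 25.44 in Ct where miR-126-3p moved by 1.14 and 0.65. The difference of 3p minus 5p was above 0 on every array for miR-139 (mean 1.78 ± 0.78, SD, n = 4), miR-335 (0.88 ± 0.65), miR-337 (3.21 ± 2.55) and miR-340 (0.49 ± 0.51). For miR-339 (-1.55 ± 1.75) and miR-532 (-0.12 ± 0.64) the sign varied between arrays. The gap between arms includes the efficiency of both assays. For miR-1, the assay on the rat sequence and that on the mouse sequence gave 28.30, 27.68, 27.71 and 26.94 against 31.87, 30.36, 30.60 and 29.66, a gap of 2.96 ± 0.42 cycles. Those of miR-351 were 0.37 ± 0.86 apart. The 2 assays of miR-1 ranked 53 and 109, so the order depends on the assay as well as on the miR.

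**Figure D4:**
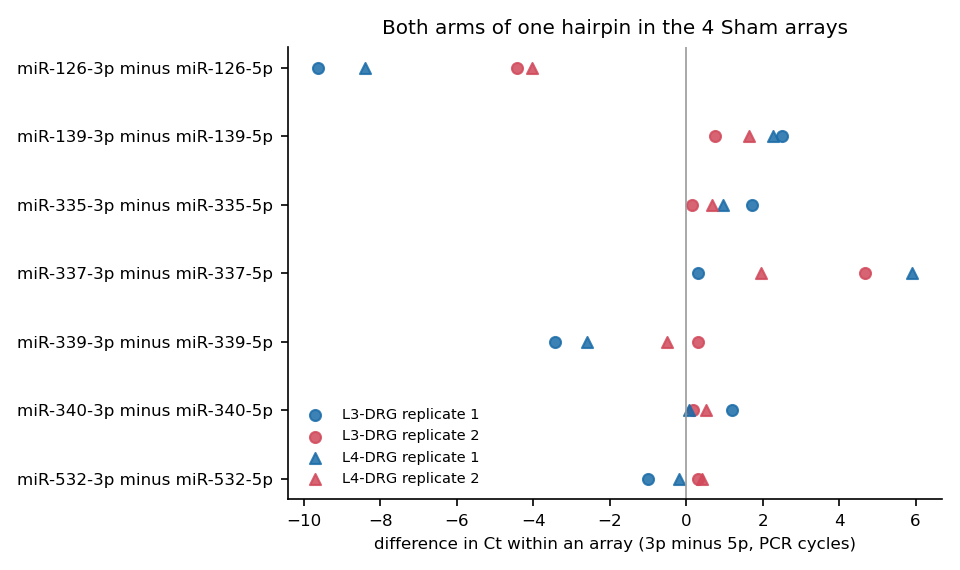
Difference in Ct within each Sham array between the 3p and the 5p arm of the 7 hairpins with both arms measured; a value below 0 means a lower Ct, and so more signal, for the 3p arm. miR-126 stands apart at -9.64 and -8.40 in the replicate 1 arrays and -4.42 and -4.04 in the replicate 2 arrays, and miR-339 and miR-532 straddle 0.

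Marker lists placed the tissue as follows, beside a median mean Ct of 29.31 and a median rank of 77.5 over all miRs. In bulk tissue, fewer cells of a type and less RNA per cell cannot be told apart. Of the sensory neuron cluster 2 of 3 members were measured, miR-182 (rank 5) and miR-183, at 28.66, 27.62, 27.39 and 26.52 (rank 50), encoded together at chr4:59752246-59756153. Of 14 neuron miRs 5 were measured, with miR-9 (26.13, rank 23), miR-218 (26.42, rank 28), miR-137 (28.95), miR-132 (30.12) and miR-129-3p (30.83). Of the glial pair only miR-338-3p was measured (30.39, rank 101), at 32.80 and 32.90 in replicate 1 and 28.48 and 27.39 in replicate 2, and it was called higher in replicate 2 under both scalings. The neuron, sensory neuron, glia and endothelium lists thus each had at least 1 member in the table, and the members not in it were not analysed here.

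Markers of other tissues were present as well. The skeletal muscle list had 3 of 4 members measured, and miR-133a was at 24.62, 24.42, 23.89 and 23.65 (rank 7). Its rank was 6 to 12 on the arrays, and its 4 raw values lay within a cycle of each other while the card as a whole shifted. After each array was centred on its mean, the SD of miR-133a was 1.07 cycles, against a median of 0.76 over all miRs. miR-133a was not called between numbers with the 3 references. Against the mean of all miRs it was called lower in replicate 2, at -1.84. miR-133b was at 29.60, and miR-1 as given above. Smooth muscle miRs were miR-145 (26.22) and miR-143 (28.65), which lie together. miR-145 was at 28.23 and 27.73 in replicate 1 and at 24.76 and 24.18 in replicate 2, and was called higher in replicate 2 under both scalings. All 4 leukocyte miRs were measured, miR-150 (24.31, rank 8), miR-223 of myeloid cells (26.68), miR-155 (29.22) and miR-142-3p (30.97). miR-155 and miR-142-3p were called higher and miR-150 lower in replicate 2 under both scalings. With snoRNA135 alone miR-155 turned to -0.44 and miR-145 to -0.34, and with MammU6 alone miR-150 turned to 1.22. Of the red blood cell miRs, miR-486 was measured (27.43, rank 46). Epithelial miR-203 (30.53) and miR-200c (31.79), pancreatic miR-217 (31.19), miR-192 of gut and kidney (31.68), and miR-34b-3p (30.48) and miR-449a of ciliated cells all lay above the median Ct. No member of the heart, liver or embryonic stem cell lists was in the table, and these were not analysed here. Whether muscle, blood or vessel left on a ganglion contributed to any of these levels was not tested.

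**Figure D5:**
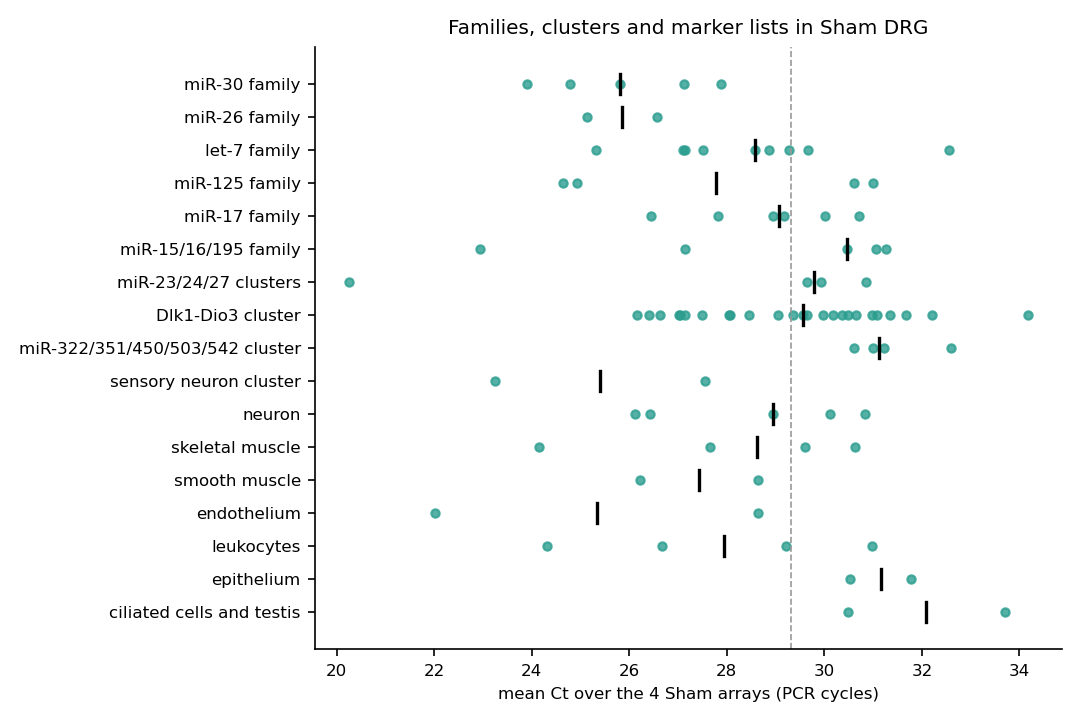
Mean Ct over the 4 Sham arrays of the members (points) of the families, clusters and marker lists, with each list's median (black bar) and the median of all 154 miRs (dashed line, 29.31). The miR-30 and miR-26 families lie left of the dashed line, and the epithelial, ciliated cell and miR-351 cluster lists lie right of it.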

How the data were processed

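RNA of 12 single lumbar DRG was run on a TaqMan array (rodent Card A, version 2) over 40 cycles without a Ct cut-off, and the authors deposited Ct values, which are a log2 scale with the sign turned, for the miRs detected in all 12 arrays. The values are not normalized. A second deposited table holds fold changes of the injured arrays against Sham and was not used. The groups, DRG levels and replicate numbers were taken from the sample labels.

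From the 4 Sham columns (Python 3.11.15, pandas 2.3.3, numpy 2.4.6), miRs were ranked by Ct within each array and by mean Ct. No reference enters a rank. For tests, Ct was subtracted from the mean Ct of MammU6 (4 wells averaged), snoRNA135 and U87, and limma 3.58.1 (R 4.3.3) was fitted to these minus ΔCt values of all 154 miRs, two-sided, with Benjamini-Hochberg adjustment and a call at an adjusted p under 0.05. L4-DRG minus L3-DRG was fitted without a block, and replicate 2 minus replicate 1 with the DRG level. Replicate numbers paired the samples: over the 15 pairs of the 6 groups, deviations from the group means correlated across miRs with r from 0.642 to 0.791 (Sham L3-DRG with L4-DRG 0.697), so the blocked fit is given too. The code was tested on simulated data in which 30 miRs were changed by 3 on the log2 scale. There the unblocked fit between levels called none of the changed miRs and the other fits most of them.

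Named miRs were the 20 lowest and 15 highest by mean Ct, the 5 widest and 5 narrowest ranges of rank, up to 5 per direction by p in each comparison, members of family, cluster and tissue lists, of seed families of 3 or more assays, and pairs of arms or of rat and mouse assays. A few others are named as neighbours or shared seeds of these, after their values were seen. The members and lists were chosen with earlier results of these data known. Assays were matched to rat mature sequences and GRCr8 positions of RefSeq by name. Hosts are genes, other than miR genes, that hold the whole hairpin on either strand, so a gene that overlaps only part of it is not named. Precision is limited by the number of arrays, since a Ct carries no count.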

Additional observations from a re-analysis of the deposited data

Results flagged for a closer look

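Among 129 quantities of the 4 Sham arrays (minus ΔCt of named miRs and the like), 7 had a single array that stood apart, its gap to the nearest array taking up most of the range. Chance alone flags about 1 in 20 such groups of 4, and 7 of 129 is near that share, so the flags below are not set apart from chance. That rate also takes the 4 arrays as alike, while these differed by replicate number. In L3-DRG replicate 1 minus ΔCt was -3.99 for let-7b, where the other arrays lay between -3.32 and -3.23, and -4.64 for let-7d, where they lay between -3.49 and -3.35. In the same array miR-487b was at -4.46, above the -5.01 to -4.95 of the others. L4-DRG replicate 2 stood apart for let-7a, at -3.03 against -4.59 to -4.43, and for miR-409-3p, at -1.24 against -1.30 to -1.29, a gap of a few hundredths. miR-323-3p was at -2.23 in L4-DRG replicate 1, below -1.80 to -1.76. miR-217 was at -7.19 in L3-DRG replicate 2, below -5.74 to -5.63.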

How the results depend on the processing

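Of the 20 lowest miRs 16 (replicate 2 arrays alone) to 20 stayed among the 20 lowest under all 9 alternatives (median Ct, mean of ranks, a Ct limit, each number alone, each array left out). When miRs with a Ct over 35 were dropped, 8 of the 15 highest were left. That number is set by the limit itself and does not measure how stable the order was. With Ct of at most 32 the mean rho between arrays of different numbers was 0.837. The median rank of the list of miR-221 and miR-222 moved from 32 to between 29 (without L3-DRG replicate 2) and 34 (without L3-DRG replicate 1). For the Dlk1-Dio3 list it ran from 75 (without L3-DRG replicate 2 or L4-DRG replicate 2) to 93 (without L4-DRG replicate 1). The other 176 values of median rank moved by less than the spread.

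L4-DRG minus L3-DRG gave 0 calls in limma in all 14 alternatives, and the replicate block left 9 miRs at an unadjusted p under 0.05 (3 when combined with the mean of all miRs). Replicate 2 minus replicate 1 gave 138 calls (138 higher) with MammU6 alone and 103 (5 higher, 98 lower) with snoRNA135 alone, 49 with U87 alone, 67 (17 higher) with snoRNA135 and U87, 32 (19 higher) with Ct of at most 32 and 60 with a variance trend. Leaving out an array, with no DRG level since no residual degree of freedom is left otherwise and chosen after the data were seen, gave 3 to 46 calls against 45 on all 4 arrays in that model, with 3 without L4-DRG replicate 2 and 16 without L3-DRG replicate 2. With MammU6 alone miR-184, miR-130b and miR-191 reversed to 0.26, 0.32 and 1.05, which follows from the higher Ct of MammU6 in replicate 2. Of the other single miRs' values between numbers, 108 held and 19 lost the call with the direction kept. With 2 arrays a group, few degrees of freedom limit every test, and values near the end of the 40 cycles are the least precise.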

Other observations

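Some lists were not described above. Of the 6 miRs of the HOX clusters 3 were measured, miR-196b at a mean Ct of 27.63, miR-10b at 27.73 and miR-196c at 29.94, and miR-10b was called higher in replicate 2 under both scalings. Of the stromal miRs, miR-199a-3p was at 27.54 and miR-214 at 29.36, both encoded at chr13:77116294-77121752 (GRCr8) within Dnm3. miR-222 was at 26.58 (rank 32), with Ct of 27.96 and 26.22 in L3-DRG replicate 1 and 2 and of 26.98 and 25.17 in L4-DRG, and of the 5 miRs on the list linked to nerve injury, miR-132 was the only other one measured. miR-99b was at 27.57 with ranks within 5 places, and miR-181a at 30.53.

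Several pairs with a shared seed lay close together. miR-27a and miR-27b were 0.29 cycles apart in mean Ct, and miR-28 and miR-708 0.40 apart. miR-133a and miR-133b, by contrast, were 5.45 cycles apart, and miR-34a and miR-449a 5.37 apart.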
